A study of Homo sapiens with 9 samples.

Results

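In spheroids of PC3 cells that overexpressed either NF-YA isoform, 19 genes of the 27111 in the table were near silent in the control line and were read in every library of both overexpressing lines. A gene was taken when its expected count was at most 10 in each of the 3 Empty libraries and at least 30 in each of the 6 NF-YAl and NF-YAs libraries. There were 10043 genes at or under the ceiling in every Empty library, 49 of these reached the floor in every NF-YAl library, 63 reached it in every NF-YAs library and 23 did so in both. Of the 23, 4 were left out because their symbols begin like those of families handled apart, which left 19. A shared prefix is not always a shared family, as EPHX4, an epoxide hydrolase, was left out by the prefix of the ephrin receptors. All 19 passed the filter on low counts, after which 17108 genes were tested. The same limits turned around, at least 30 in every Empty library and at most 10 in all 6 others, took 8 genes. The turned rule holds 6 libraries to the ceiling and 3 to the floor, on counts not scaled for depth. The 8 and the 19 are thus not counts of the same kind.

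PC3 is a line of human prostate cancer cells from a bone metastasis. The Empty line carried the empty lentiviral vector, and the NF-YAl and NF-YAs lines carried vectors with the murine cDNA of the long or the short isoform; each was a stably transduced, puromycin-selected population. Multicellular tumor spheroids (MTSs) were grown with Matrigel, and 18 of them were pooled for each library, with 3 libraries for each line (Empty A, B and C; NF-YAl A, B and D; NF-YAs A, B and C). Replicates were separate experiments on the same transduced line, so the p-values below measure the spread between cultures and not between transductions. No library of untransduced PC3 cells was used here, and a gain in both overexpressing lines cannot be told apart from a loss in the Empty line, since both comparisons share the Empty libraries.

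NF-Y is a trimeric transcription factor that binds the CCAAT box, a motif common in promoters close to the transcription start, and NF-YA is the subunit that contacts the DNA. The short isoform lacks a stretch of the glutamine-rich transactivation domain that the long isoform keeps. Genes without transcripts in a cell line are often held silent by DNA methylation or Polycomb proteins, or lack the factors of another tissue.

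Library totals ran from 18076979 to 27163976 expected counts, and the Empty libraries were the deepest 3. NFYA was at 91.8 ± 4.24 CPM in the Empty line (counts per 1000000, on scaled library sizes, SD, n = 3). It was at 341 ± 49.3 with NF-YAl and at 261 ± 5.71 with NF-YAs, higher in both lines as the labels state. The vector cDNA was murine and reads were aligned to human transcripts, so vector and endogenous reads cannot be told apart here. How fully murine reads aligned was not tested. Among the cell type markers, the keratins KRT8 and KRT18 carried most of the epithelial sum. This sum was 606 to 689 CPM (Empty), 366 to 395 (NF-YAl) and 395 to 454 (NF-YAs). EPCAM, an adhesion protein of epithelia, moved the opposite way from a mean of 0.982 CPM in Empty. It was called higher with NF-YAl (log2FC 2.16, edgeR adjusted p = 5.49e-05) and with NF-YAs (1.46, adjusted p = 0.000878). KRT8 was called lower in NF-YAl (-1.33) but not in NF-YAs (-0.78, edgeR adjusted p = 7.91e-05), where it was inside the fold limit. KRT18 was lower but inside the fold limit in both lines, at -0.42 (edgeR adjusted p = 0.00722) in NF-YAl and -0.49 (adjusted p = 0.00255) in NF-YAs, so it was called in neither. Of the endothelial markers the sum was 40.9 to 46.3 CPM (Empty), 325 to 718 (NF-YAl) and 191 to 288 (NF-YAs), most of it KDR, whereas CDH5 and TEK reached at most 11 and 9 counts in any library. VWF was called lower in NF-YAl (log2FC -3.23 over Empty) and PECAM1 lower in NF-YAs (-1.73). The part of these markers in the results below was not tested.

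Promoter sequence was looked at first, because the overexpressed factor binds a known motif. In the RefSeq table of promoters (GRCh38.p14, from 250 bases before to 50 after each start) 15 members had 23 windows between them, and IGSF3, LRCH2, PREX2 and TMEM74 had no entry. The letters CCAAT or, on the other strand, ATTGG stood in 7 of the 23 windows (30.4%), against 34.6% of the 35116 windows of all genes. Counted by gene, 7 of the 15 members (46.7%) held the motif in at least 1 window, against 39.7% of 27305 genes. The share per window was thus slightly below that of all genes, and the share per gene slightly above it. The 15 members had 23 windows and the 27305 genes had 35116, and more windows per gene raise the share counted by gene. Neither difference was tested. The 7 were FAM198B, GPR85, TAGLN3, ZSCAN18, TMEM200A, ZSCAN20 and MME. The 150 bases before the start are shown for the 4 of them that also differed between NF-YAl and NF-YAs, 5′ to 3′ on the strand of the gene, with CCAAT or ATTGG in capitals. Each stretch matched GRCh37 once, at chr4:159094178-159094327 (minus strand) for FAM198B, chr7:112727780-112727929 (minus) for GPR85, chr3:111718030-111718179 (plus) for TAGLN3 and chr19:58609599-58609748 (minus) for ZSCAN18.
FAM198B: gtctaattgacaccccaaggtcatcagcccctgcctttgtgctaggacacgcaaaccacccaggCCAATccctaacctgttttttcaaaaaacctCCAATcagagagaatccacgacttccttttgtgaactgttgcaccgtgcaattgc
GPR85: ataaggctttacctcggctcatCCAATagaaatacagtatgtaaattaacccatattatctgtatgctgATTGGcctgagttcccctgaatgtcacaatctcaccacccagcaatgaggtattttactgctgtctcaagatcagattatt
TAGLN3: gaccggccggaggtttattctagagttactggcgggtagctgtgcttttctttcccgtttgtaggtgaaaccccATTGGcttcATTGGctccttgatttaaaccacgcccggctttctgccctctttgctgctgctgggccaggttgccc
ZSCAN18: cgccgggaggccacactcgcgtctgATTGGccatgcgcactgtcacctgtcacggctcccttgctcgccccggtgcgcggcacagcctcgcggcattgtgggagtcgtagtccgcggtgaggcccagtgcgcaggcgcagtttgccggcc
FAM198B held CCAAT 86 and 55 bases before its start, and TAGLN3 held ATTGG 76 and 67 bases before its start. GPR85 had CCAAT at 128 and ATTGG at 81 bases, and ZSCAN18 had a single ATTGG at 125. All 4 genes held further windows at other starts that had no such letters. GC content split the members, from 34.3% in a window of GPR85 to 80.7% in that of SOBP, with a median of 64.0% against 58.7% over all windows, and 65.2% of member windows were above 60% GC against 45.9% of all. A match to these letters is a description of the sequence and not evidence that NF-Y bound there.

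The rule set the gap between Empty and the overexpressing lines, so the values against Empty that follow are a description with no test. In these bulk libraries more cells that express a gene and more RNA per cell cannot be told apart. The highest Empty value of any member was 0.397 CPM (TMEM74) and the lowest value in the other lines was 1.35 CPM (MYCN). In 6 members, DCHS2, FAM198B, GPR85, MME, MYCN and PTGFRN, no Empty library held more than 3 counts. The ratio of summed counts over Empty, scaled to TMM library sizes, had a median of 32.1 in NF-YAl (5.88 to 195) and 32.4 in NF-YAs (4.84 to 350). All 19 passed the call used here (edgeR adjusted p under 0.01 and log2FC above 1) in each line against Empty, as the rule all but fixes. Over all 17108 genes the same call was met by 4.76% in NF-YAl, by 5.44% in NF-YAs and by 2.81% in both lines.

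**Figure D1:**
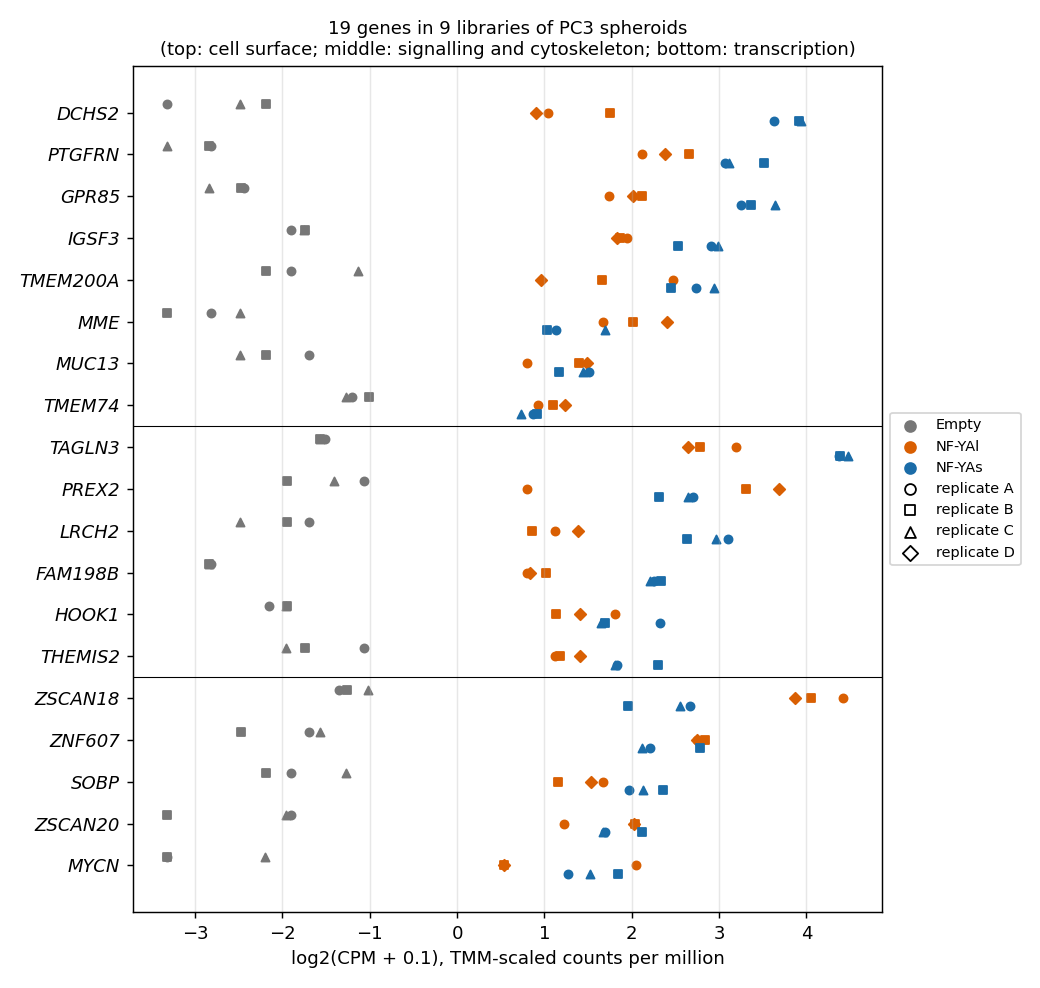
Level of each of the 19 genes in the 9 libraries, as log2 of CPM plus 0.1, with 1 point a library, color for the line and shape for the replicate letter. In each gene the 3 Empty points lie to the left of the other 6, which is what the rule asks, and the order of NF-YAl and NF-YAs differs from gene to gene.

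Compared per unit of length, most members were at low levels in the overexpressing lines too. Their mean over the 6 libraries of both lines was 17.5 for TAGLN3 on the TPM scale (transcripts per 1000000, which divides by transcript length), 6.29 for ZSCAN18 and 2.39 or less for the other 17, down to 0.415 for TMEM74. Ranked among all genes with a TPM above 0 in the same library, the members stood at a median percentile of 31.6, from 18.8 (TMEM74) to 71.1 (TAGLN3). The 2 genes at the top were thus a cytoskeletal protein of neurons and a zinc finger protein. TPM was not compared between libraries, since TPM over CPM, summed over the members, moved from 0.333 in NF-YAl B to 0.604 in NF-YAl D.

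Of the 19, 8 encode proteins of the cell surface or membrane. DCHS2, a large cadherin of the Dachsous family, read 0, 0.119 and 0.0787 CPM (Empty), 1.96, 3.27 and 1.77 (NF-YAl) and 12.3, 14.9 and 15.2 (NF-YAs). Its ratio over Empty was 35.2 (95% counting interval 14.8 to 110) in NF-YAl and 211 (90.2 to 652) in NF-YAs. NF-YAs libraries were all above NF-YAl libraries, and DCHS2 had the highest mean of the surface genes. GPR85, an orphan receptor of the G protein-coupled family best known from brain, read 0.0839, 0.0795 and 0.0394 CPM (Empty), 3.24, 4.25 and 3.94 (NF-YAl) and 9.43, 10.2 and 12.3 (NF-YAs). Its ratios were 57.4 (24.3 to 178) and 160 (68.1 to 494). Again the 2 overexpressing lines did not overlap.

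PTGFRN and IGSF3 are related membrane proteins with immunoglobulin domains, and both are known partners of tetraspanins. PTGFRN read 0.0419, 0.0397 and 0 CPM (Empty), 4.24, 6.18 and 5.09 (NF-YAl) and 8.29, 11.3 and 8.52 (NF-YAs). IGSF3 read 0.168, 0.199 and 0.197 CPM (Empty), 3.77, 3.56 and 3.45 (NF-YAl) and 7.38, 5.67 and 7.83 (NF-YAs). Both genes were lower in every NF-YAl library than in any NF-YAs library. PTGFRN had the highest ratios over Empty of all members, 195 (53.7 to 1619) in NF-YAl and 350 (96.3 to 2893) in NF-YAs, with wide intervals because Empty held 2 counts in all. IGSF3 had 19.02 (11.1 to 35.3) and 37.1 (21.9 to 68.4).

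MME, which encodes neprilysin (CD10), a peptidase on the surface of prostate and other epithelia, was the surface gene with the highest ratio in NF-YAl after PTGFRN. It read 0.0419, 0 and 0.0787 CPM (Empty), 3.08, 3.93 and 5.18 (NF-YAl) and 2.10, 1.94 and 3.13 (NF-YAs), with ratios of 103 (34.8 to 501) and 60 (20.1 to 294). The 2 lines overlapped narrowly. MUC13, a transmembrane mucin of gut epithelium, read 0.210, 0.119 and 0.0787 CPM (Empty), 1.64, 2.54 and 2.71 (NF-YAl) and 2.75, 2.14 and 2.63 (NF-YAs), and the lines overlapped. TMEM200A, a membrane protein of little known function, read 0.168, 0.119 and 0.354 CPM (Empty), 5.46, 3.07 and 1.85 (NF-YAl) and 6.57, 5.37 and 7.56 (NF-YAs). TMEM74, a lysosomal and autophagosomal membrane protein, stood near both limits, with 8 to 10 counts in Empty against 32 to 55 in the other libraries, and had the lowest ratios of all members, 5.88 (3.85 to 9.32) and 4.84 (3.12 to 7.75).

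The group of signalling and cytoskeletal proteins, in which the Golgi-associated FAM198B was also counted, held 6 members. TAGLN3, an actin-binding protein of the transgelin family found mainly in neurons, read 0.252, 0.238 and 0.236 CPM (Empty), 9.02, 6.75 and 6.16 (NF-YAl) and 20.7, 20.9 and 22.2 (NF-YAs). It had the highest level of all members in NF-YAs, and its 3 libraries there lay within a factor of 1.07 of each other. LRCH2, a leucine-rich repeat protein with a calponin homology domain, read 0.210, 0.159 and 0.0787 CPM (Empty), 2.07, 1.72 and 2.51 (NF-YAl) and 8.51, 6.12 and 7.70 (NF-YAs). FAM198B (now GASK1B, a Golgi-associated protein) was at 1.64, 1.92 and 1.68 CPM (NF-YAl) and 4.69, 4.93 and 4.52 (NF-YAs), with 1 count in each Empty library. In all 3 genes NF-YAs exceeded NF-YAl without overlap.

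PREX2, a guanine nucleotide exchange factor for Rac, read 0.377, 0.159 and 0.276 CPM (Empty), 1.64, 9.81 and 12.8 (NF-YAl) and 6.41, 4.88 and 6.17 (NF-YAs). NF-YAl A was below every NF-YAs library, and the other two NF-YAl libraries were above them all. HOOK1, a microtubule-binding adaptor for dynein cargo, read 0.126, 0.159 and 0.157 CPM (Empty), 3.39, 2.09 and 2.55 (NF-YAl) and 4.90, 3.14 and 3.04 (NF-YAs), and the lines overlapped. THEMIS2, a signalling adaptor of B cells and macrophages, read 0.377, 0.199 and 0.157 CPM (Empty), 2.07, 2.17 and 2.55 (NF-YAl) and 3.45, 4.83 and 3.41 (NF-YAs), without overlap. Markers of leukocytes and of neural cells were read beside THEMIS2 and TAGLN3. The summed 5 leukocyte markers spanned 19.6 to 36.9 CPM (Empty), 22.0 to 33.7 (NF-YAl) and 21.3 to 21.9 (NF-YAs), almost all of it LYZ, while PTPRC and CD3E reached at most 11.62 and 2 counts in any library. The 5 summed neural and glial markers spanned 80.1 to 87.0 CPM (Empty), 53.2 to 71.8 (NF-YAl) and 64.7 to 71.3 (NF-YAs), almost all of it MBP, and SNAP25 reached at most 2 counts. Neither list had a member called in either line, with 2 and 4 of their 5 genes tested.

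Transcription was the role of the other 5, of which 3 have names of the zinc finger families. ZSCAN18, a zinc finger protein with a SCAN domain, read 0.294, 0.318 and 0.394 CPM (Empty), 21.2, 16.5 and 14.5 (NF-YAl) and 6.25, 3.78 and 5.76 (NF-YAs). Its ratio over Empty was 50.9 (34.3 to 79.0) in NF-YAl and 15.6 (10.4 to 24.5) in NF-YAs. It was the highest member in NF-YAl, and every NF-YAl library exceeded every NF-YAs library. ZNF607, a zinc finger protein with a KRAB domain, read 0.210, 0.0795 and 0.236 CPM (Empty), 6.63, 7.07 and 6.61 (NF-YAl) and 4.52, 6.77 and 4.24 (NF-YAs). ZSCAN20, also with a SCAN domain, read 0.168, 0 and 0.157 CPM (Empty), 2.23, 4.01 and 3.98 (NF-YAl) and 3.12, 4.23 and 3.09 (NF-YAs). For ZNF607 and ZSCAN20 the lines overlapped. Of all 17108 tested genes 3.18% have such names, against 15.8% of the members, a share given as a description since the members were chosen from these data.

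MYCN, the transcription factor of the MYC family amplified in neuroblastoma and in neuroendocrine prostate cancer, read 0, 0 and 0.118 CPM (Empty), 4.03, 1.35 and 1.36 (NF-YAl) and 2.32, 3.48 and 2.76 (NF-YAs). Its ratios over Empty were 52.1 (17.5 to 255) and 71.1 (23.9 to 348), on 3 Empty counts. SOBP, a nuclear protein named for its fly counterpart sine oculis binding protein, read 0.168, 0.119 and 0.315 CPM (Empty), 3.08, 2.13 and 2.79 (NF-YAl) and 3.82, 5.03 and 4.29 (NF-YAs). Here NF-YAs was above NF-YAl in every library, whereas the NF-YAl values of MYCN lay on both sides of those of NF-YAs.

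The comparison of NF-YAl with NF-YAs, which the rule did not use, asked whether the 2 lines held these genes at the same level. Levels differed for 6 of the 19. DCHS2, LRCH2, TAGLN3, GPR85 and FAM198B were lower in NF-YAl and ZSCAN18 was higher, at an edgeR adjusted p under 0.01 and a log2FC beyond 1 in either direction. Among all tested genes, which were not held to the count limits of the rule, 2.86% were called lower in NF-YAl and 1.74% higher, 4.61% in all. DCHS2 differed by a log2FC of -2.59 (SE 0.268, edgeR adjusted p = 6.34e-05). For LRCH2 the log2FC was -1.82 (SE 0.233, adjusted p = 0.000267), for TAGLN3 -1.54 (SE 0.154, adjusted p = 4.90e-05), for GPR85 -1.48 (SE 0.184, adjusted p = 0.000222) and for FAM198B -1.42 (SE 0.199, adjusted p = 0.000494). These 5 fell in the cell surface group or the signalling and cytoskeleton group, which hold 8 and 6 of the 19 members. None was from the transcription group, which holds 5. The groups were assigned once the members were known. ZSCAN18 differed the other way, by 1.72 (SE 0.206, adjusted p = 0.000168).

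The other 13 were not called. IGSF3 had an adjusted p of 0.00333 in edgeR but a log2FC of -0.96 (SE 0.184), inside the fold limit. PTGFRN (-0.86, SE 0.212, adjusted p = 0.0131) and THEMIS2 (-0.78, SE 0.253, adjusted p = 0.0434) passed only the looser threshold of 0.05. For SOBP the value was -0.72 (SE 0.247), for TMEM200A -0.93 (SE 0.338), for MME 0.76 (SE 0.295) and for HOOK1 -0.47 (SE 0.260). The SE of these genes leaves room for differences near the fold limit, so a missed threshold does not show equal levels. ZSCAN20 at -0.02 (SE 0.330) and MUC13 at -0.11 (SE 0.267) had the smallest differences. ZNF607 (0.39), TMEM74 (0.27), PREX2 (0.49) and MYCN (-0.37) lay between. Across the members the median log2FC was -0.72, against 0.02 over all tested genes, which were not held to the count limits of the rule. By CPM, 9 members had all NF-YAl libraries below all NF-YAs libraries and 2 had them above, 47.4% and 10.5% of the members, where 20.9% and 18.6% of all tested genes did so.

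Replicates of the NF-YAl line were spread more widely than those of NF-YAs. The highest library over the lowest was a median factor of 1.46 in NF-YAl and 1.37 in NF-YAs, and it was wider in NF-YAl for 15 of the 19. Over all tested genes with at least 30 counts in the 6 libraries the medians were 1.31 and 1.14, so the wider spread of NF-YAl is shared by other genes. PREX2, MYCN and TMEM200A exceeded 2-fold in NF-YAl, by factors of 7.79, 2.99 and 2.96, and none did in NF-YAs, where the widest was ZSCAN18 at 1.65. NF-YAl A stood apart, low for PREX2 and high for MYCN, and was the highest of 3 scattered values for TMEM200A. Over the 19 genes it was the lowest of its line in 9 and the highest in 7. Without NF-YAl A the log2FC between the lines became -1.40 for TMEM200A (SE 0.291, edgeR adjusted p = 0.00450), past the threshold, and -1.08 for MYCN (SE 0.370, adjusted p = 0.0563). PREX2 moved to 0.96 (SE 0.205, adjusted p = 0.00537), inside the fold limit.

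**Figure D2:**
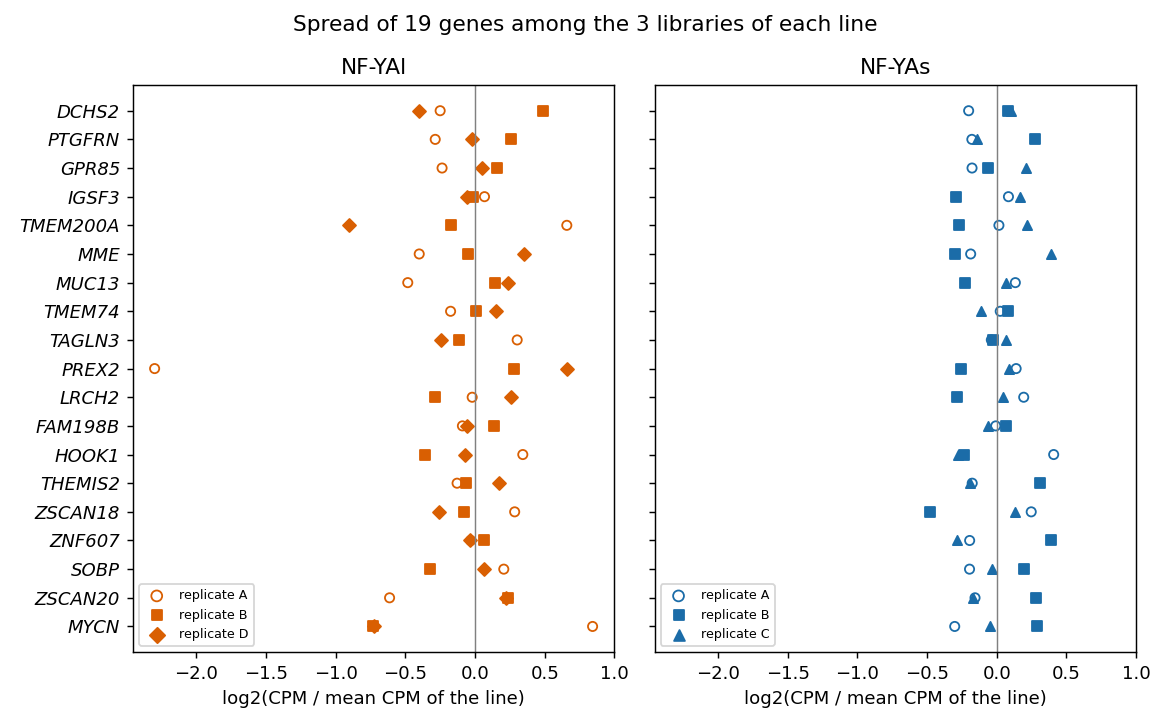
Each library's CPM over the mean of its line, on a log2 axis, for the 19 genes in NF-YAl (left) and NF-YAs (right), with open circles for replicate A. The open circle of PREX2 in NF-YAl lies far to the left, and those of MYCN and TMEM200A lie to the right.

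Estimates for transcripts were available for all members. In 5 genes (HOOK1, MUC13, PTGFRN, SOBP and ZSCAN20) the table held a single transcript, and 14 had several. DCHS2 gave 54.1 to 64.9% of its estimate to a transcript of 5064 nt, and ZNF607 gave 47.8 to 55.3% to one of 4364 nt, over the 6 libraries. Such shares were stable, whereas those of FAM198B, MME and TMEM200A moved by more than 50 points among libraries. The 2 lines did not overlap for GPR85, whose 4763-nt transcript took 100% in every NF-YAl library and 53.4, 68.3 and 64.9% in NF-YAs. Nor did they for PREX2, whose 10756-nt transcript took 52.3, 55.0 and 43.6% (NF-YAl) and 83.0, 84.1 and 60.5% (NF-YAs). Both reached p = 0.1 in a two-sided exact permutation test, the smallest that 3 against 3 can give, and 0.56 after Benjamini-Hochberg adjustment over the 14 genes. For GPR85 the estimates rest on 61 to 104 counts per NF-YAl library and 175 to 268 per NF-YAs library. Its transcripts are of similar length, from 4763 to 4936 nt. Whether too few reads told them apart in NF-YAl was not tested.

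The 19 genes lie on 9 chromosomes, with 5 on chromosome 1, 3 on chromosome 3 and 2 each on chromosomes 4, 6, 8 and 19. Only IGSF3 and PTGFRN are within 500 kb of each other. On GRCh37, IGSF3 spans chr1:117117021-117210377 on the minus strand and PTGFRN spans chr1:117452538-117532975 on the plus strand, with starts 242 kb apart. No other tested gene starts between these 2. Their nearest tested neighbors on the outer sides were CD58, 96.7 kb from IGSF3, and TTF2, 150 kb from PTGFRN. CD58 had a log2FC over Empty of 0.30 in NF-YAl and -0.01 in NF-YAs, and TTF2 had 0.53 (edgeR adjusted p = 0.00394) and 0.91 (adjusted p = 9.19e-05), inside the fold limit. MAN1A2, 458 kb from PTGFRN, was called higher in NF-YAl (1.08, edgeR adjusted p = 2.01e-05) and was at 0.78 in NF-YAs (adjusted p = 0.000159), inside the fold limit. DCHS2 (chr4:155152894-155412951, minus) and FAM198B (chr4:159045626-159094470, minus) are the next closest pair, with starts 3682 kb apart.

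Genes around the members were taken next, as tested genes that are not members and start within 500 kb of one. There were 120, and 2 of them (1.67%) were called higher in both lines, against 2.81% of all tested genes. MME had no tested neighbor. CYP2J2, an epoxygenase of arachidonic acid, starts 112 kb from HOOK1 and read 0.0801 ± 0.0683 CPM (Empty), 0.536 ± 0.0730 (NF-YAl) and 2.16 ± 0.142 (NF-YAs) (SD, n = 3). Its log2FC over Empty was 2.65 (SE 0.491, edgeR adjusted p = 0.00148) in NF-YAl and 4.65 (SE 0.422, adjusted p = 8.90e-06) in NF-YAs. ZNF569, a zinc finger gene 250 kb from ZNF607, read 0.341 CPM (Empty), 5.45 ± 0.608 (NF-YAl) and 2.72 ± 0.217 (NF-YAs). The log2FC of ZNF569 was 3.99 (SE 0.350, edgeR adjusted p = 8.22e-06) in NF-YAl and 2.99 (SE 0.362, adjusted p = 6.31e-05) in NF-YAs.

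ZNF607 (chr19:38187272-38210662, minus) had 11 tested neighbors in a cluster of zinc finger genes, and 4 of them were called higher in NF-YAl. These were ZNF569, ZNF573 (log2FC 1.99), ZNF540 (1.62) and ZNF570 (1.41). Of these only ZNF569 was called in NF-YAs, where ZNF573 was at -0.11, ZNF540 at 1.10 and ZNF570 at 0.39. ZFP30, 27.4 kb from ZNF607, was at 0.83 in NF-YAl (edgeR adjusted p = 0.000527), inside the fold limit. ZNF571, ZNF793, ZNF527 and HKR1 lay between 0.01 and 0.24 in NF-YAl. The cluster thus held genes that were called and genes that were not. ZSCAN18 (chr19:58595205-58629794, minus) lies in another cluster of such genes and had 43 neighbors, none called, with log2FC between -0.91 and 0.84 in NF-YAl and between -0.69 and 0.47 in NF-YAs. C8orf34, which starts 379 kb from PREX2, was called higher in NF-YAl (log2FC 4.70), where A, B and D were at 3.82, 0.941 and 1.03 CPM, and was at 2.73 in NF-YAs (edgeR adjusted p = 0.0507). CPA6, 206 kb from PREX2, was at -0.28 in NF-YAl and was called higher in NF-YAs (1.56, edgeR adjusted p = 0.000991). Over the 120 neighbors 10 (8.33%) were called higher in NF-YAl, where the share of all genes was 4.76%, and 3 (2.5%) in NF-YAs, where it was 5.44%. Medians of the neighbors were 0.15 and 0.07 in NF-YAl and NF-YAs, against 0.01 and -0.00 for all genes.

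On the opposite strand 10 members overlap an annotated gene, and reads could be shared, as the use of strand in the counting is not given in the sources used here. The table of counts held a partner for 3 of them. RBMXL3 inside LRCH2 held 20 counts over all 9 libraries against 601 for LRCH2, and MYCNOS held 10.45 against 318 for MYCN. ZNF135, which overlaps ZSCAN18, held 160 against 1499, and its log2FC over Empty was -0.14 in NF-YAl and -0.32 in NF-YAs. In these 3 pairs the partner held fewer counts than the member. For the other 7, DCHS2, FAM198B, MME, PREX2, PTGFRN, SOBP and TMEM74, no partner was counted, and reads from the opposite strand cannot be told apart from those of the member.

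Gene lists of the machinery that keeps genes silent differed little from Empty. NFYB and NFYC, the partners of NF-YA, were not called in either line. Of 20 genes of DNA methylation and demethylation, none was called higher and 1, GADD45B, was called lower in each line, with a median log2FC of -0.08 in NF-YAl and 0.01 in NF-YAs. Of 27 Polycomb genes, CBX2 was called lower in both lines and PHC1 higher in NF-YAs, with medians of 0.11 and 0.01. Of the 12 tested cancer-testis genes, a class often silenced by DNA methylation outside the germ line, NF-YAl had 1 higher (TEX15) and 2 lower (MAGEA1 and MAGEA6). NF-YAs had 3 higher (TEX14, TEX15 and PIWIL1) and none lower. Of all tested genes 4.76% and 5.44% were called higher than Empty with NF-YAl and NF-YAs, and 3.5% and 3.9% lower. No member was called lower, which the rule fixed in advance.

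At the edges of the rule, the genes just inside the Empty ceiling were TMEM74 and ZSCAN18 with a highest Empty count of 10 and THEMIS2 with 9. Just outside were ABCA6 with 11, AMIGO1 with 12 and CSMD3 with 13. At the floor, PREX2 was inside with 30.87 counts in its lowest library and FAM198B and MUC13 with 31, and PDZRN3, SLC16A10 and STAC were outside with 29 each. For ZSCAN18 the ceiling was close in Empty alone, since its lowest library in the other lines held 76 counts.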

How the data were processed

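Total RNA of PC3 MTSs was sequenced from stranded libraries, 3 for each line. The authors aligned reads to the human transcriptome (hg19) with Bowtie2 within RSEM and deposited expected counts, TPM per gene and, per transcript, the percent of its gene's estimate. No untransduced library was analysed here. Expected counts were rounded and tested with the quasi-likelihood test of edgeR 4.0.16 (R 4.3.3) on TMM library sizes, with all 9 libraries in 1 fit, genes filtered by expression (10003 of 27111 left out), and Benjamini-Hochberg adjustment over the 17108 genes tested. A call needed an adjusted p under 0.01 and a log2FC beyond 1. DESeq2 1.42.0 was an alternative. CPM are on TMM library sizes. Ratios over Empty have exact 95% conditional intervals, which cover counting error only. Positions are from GENCODE v44lift37 on GRCh37 (16044 tested genes placed). Scripts were tested on simulated data. Some genes are not reported here. The members and the gene lists were chosen with earlier results of these data known. Values in every library are given for the 10 members with the highest mean TPM, the members called between the lines, up to 4 members per role group with the highest CPM, those near the limits of the rule and those within 500 kb of each other; HOOK1, MME and the neighbors were added after their values were seen.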

Additional observations from a re-analysis of the deposited data

Results flagged for a closer look

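For 6 of the 19 genes the response to NF-YAl and to NF-YAs differed, by a test of NF-YAl against NF-YAs in edgeR (both comparisons share the Empty libraries, which drop out of this difference). The log2FC between the lines was -2.59 for DCHS2, -1.82 for LRCH2, -1.54 for TAGLN3, -1.48 for GPR85 and -1.42 for FAM198B, all lower in NF-YAl, and 1.72 for ZSCAN18, higher in NF-YAl. The CPM of the lines did not overlap in any of the 6.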

How the results depend on the processing

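One member was higher in NF-YAl than in NF-YAs under every alternative, and 5 or 6 were lower. Calls over all genes between the lines were 788, 989 with the replicate block, 901 with DESeq2, 1874 without the fold limit, and 525 to 977 with 1 library left out (525 without NF-YAs C). The number of members was 6 with an Empty ceiling of 3, 41 with 20, 1 with a floor of 100, and 19 to 24 with 1 library left out. With counts scaled by depth it was 22. Neighbors called in both lines were 1 of 54 within 250 kb, 6 of 245 within 1 Mb, and 1 (without Empty C) to 3 (without NF-YAl A). Among gene values, 222 kept direction and call, and 2 passed the threshold, IGSF3 at -1.09 without NF-YAs B and TMEM200A at -1.40 without NF-YAl A. The sign turned for MUC13 (-0.24 to 0.068 with 1 library left out, 0.068 without NF-YAl A), ZSCAN20 (-0.15 to 0.20, with 0.20 without NF-YAl A and 0.14 without NF-YAs B) and PREX2 (-0.18 with the replicate block). The cause was not tested. Whether equal letters mark a shared experiment is not stated; 3 of 7 same-letter pairs correlated over 0.1, short of every pair, so the reported fit has no replicate block. The block changed no member's call. Depth limits the ratios over Empty, which rest on few counts.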

Other observations

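Genes left out by name met the same count limits. RUNX3, a transcription factor of the Runt family, held 0 to 2 counts in Empty, 52, 269 and 273 in NF-YAl A, B and D and 181 to 252 in NF-YAs. Like PREX2, it was lowest in NF-YAl A. LINC01139 held 0 to 4 counts in Empty and 48 to 62 in the other libraries, and EPHX4 held 5 to 9 and 47 to 78.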
